A study of Mus musculus with 6 samples.

Results

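Cholesterol synthesis and its sterol control were followed through 28 genes of mouse pancreatic islets. They were chosen by name for their place in the pathway, with earlier results of these data known, and each matched 1 row among the 55401 genes of the count table. Of the 28, 18 encode enzymes of the pathway, 5 form the SREBP control system, and 5 act in sterol transport, export and LXR signalling. The mice were C57BL/6 males of about 20 weeks, and islet RNA gave 3 control and 3 KO libraries. All mice carried Pdgfra fl/fl, that is, floxed alleles of the gene for the PDGF receptor alpha. Controls were Pdx1-Cre- and KO mice Pdx1-Cre+, so Cre in the KO mice followed the Pdx1 promoter, which is active in the developing pancreas, exocrine as well as endocrine. No mice with Cre and unfloxed Pdgfra are among these samples, so Cre itself and loss of Pdgfra cannot be told apart. The count table names all 3 KO columns with a suffix that no control column has and that the labels do not explain, so any difference in handling it may mark and the genotype cannot be told apart either. The labels do not say that each library is a separate animal, and p-values measure only the spread between these libraries.

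As background, cells build cholesterol from acetyl-CoA through mevalonate, isoprenoid units, squalene and lanosterol. When sterols in the endoplasmic reticulum run low, the escort protein SCAP carries SREBP2 to the Golgi apparatus, where its active part is cut free and switches on the enzymes. When sterols are plentiful, INSIG proteins hold SCAP and SREBP back, and oxysterols turn on LXR receptors and the exporters ABCA1 and ABCG1. In beta cells, cholesterol content is known to bear on membrane organization and insulin secretion.

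Library totals ran from 15026094 to 25299689 counts, and 14212 genes passed the filter on low counts, the 28 sterol genes among them. The 10 beta-cell markers took 7.99 to 15.1% of counts in controls and 10.7 to 13.0% in KO, as the islet label implies, but the 14 markers of exocrine acinar cells took 20.7 to 36.9% and 16.04 to 28.9%. All 14 acinar markers had lower fitted levels in KO (14 of 14 negative), with 0 at zero counts in any library, and their summed share did not differ beyond the spread (two-sided exact permutation p = 0.5). The ribosomal RNA locus CT010467.1 took 3.32 to 4.51% of counts in controls, 5.36% in KO 1, 12.6% in KO 2 and 18.5% in KO 3 (two-sided exact permutation p = 0.1, the lowest value that 3 against 3 can give). On the TMM-scaled scale used for all levels below, KO 1 lay within the control range for this locus and the exact permutation test gave p = 0.2. Macrophage markers, from cells rich in the exporters, took 0.0088 to 0.0126% in controls and 0.00779 to 0.0112% in KO, with 8 of 9 tested negative and 0 of 10 at zero counts. In bulk islets, fewer cells of a type and less RNA per cell cannot be told apart. Pdgfra stood at 3.37, 5.13 and 3.82 CPM (counts scaled by library size and TMM factor) in controls 1, 2 and 3 and at 3.73, 1.56 and 4.76 in KO 1, 2 and 3, with a log2 fold change of -0.26 (standard error 0.34, edgeR adjusted p = 0.869), so it did not check the genotype labels, and counts over all exons cannot show whether the floxed exons were lost. The fibroblast and stellate markers, from cells known for Pdgfra, took 0.0152 to 0.0303% in controls and 0.0037 to 0.0233% in KO, with 0 of 10 at zero counts. What these markers and the ribosomal RNA counts contribute to the values below was not tested beyond the settings named.

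No sterol gene passed the test of KO against control. With the edgeR quasi-likelihood test, 0 of 28 passed an adjusted p of 0.05, where 0.0704% of all genes tested did, and DESeq2 and limma-voom also called 0. At an unadjusted p under 0.05 there were 3 in edgeR, where 7.37% of all genes lay, 1 in DESeq2 and 3 in limma-voom. Of all 14212 genes, 699 had such a p in DESeq2 and 985 in limma-voom. The 3 in edgeR were Insig1, Hmgcs1 and Srebf2, all with higher levels in KO, where 4.83% of all genes had such a p with a higher level. Of the 28, 21 had positive and 7 negative values, against 47.8% positive among all genes, and the median log2 fold change was 0.08, against -0.01 over all genes. Groups did not overlap in 2 genes, Srebf2 and Sc5d, both higher in KO, while 13.9% of all genes showed no overlap and 7.94% none with KO higher. The 95% intervals of 25 genes lay within 1.5-fold in either direction. The exceptions were Hmgcs1, with an upper bound of 1.54-fold, Hsd17b7 with 1.51-fold, and Mylip, whose lower bound was 0.650-fold. Leaving out 1 library moved the log2 fold change by over 1.5 times for 23 of the 28 genes, the exceptions being Acat2, Hmgcs1, Cyp51, Sc5d and Insig1. Values near 0 reach such a relative move easily, and the count was not made over all genes.

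The small lean towards higher values sat in KO 2 and KO 3. In these libraries 22 of the 28 genes lay above the control mean, in each case, against 14 in KO 1 and 9, 14 and 19 in controls 1, 2 and 3. Each control is part of that mean and so is drawn towards it, and this count was not made over all genes. The mean deviation of the 28 genes from the control mean on the log2 CPM scale was 0.0065 in KO 1, 0.10 in KO 2 and 0.12 in KO 3, and the controls ran from -0.032 to 0.027. The median deviation over all genes tested was 0.0014 in KO 1, 0.0035 in KO 2 and 0.00046 in KO 3. TMM scaling brings the typical gene near 0 in each library, so these medians do not show how unusual the means of the 28 are. KO 2 held the highest of the 6 levels for 11 genes and KO 3 for 9. The highest library was not counted over all genes, where the spread was larger in KO for 56.1%. KO 2 and KO 3 are the libraries with the most ribosomal RNA counts. With the log2 level of that locus as a covariate, 15 of 28 values were positive and the median was 0.0037. That level was 14.9 to 15.7 in controls and 15.7, 17.1 and 17.4 in KO 1, 2 and 3, so it partly follows genotype. What the locus and the genotype each contribute cannot be told apart in this fit. Over all genes, those with an unadjusted edgeR p under 0.05 fell from 1048 to 214 with this covariate. Standard errors grew as well, from 0.11 to 0.19 for Insig1 and from 0.10 to 0.16 for Srebf2. The fall therefore does not measure what the locus contributes. KO 1 alone against the controls gave 13 positive values and a median of -0.0031, a setting chosen after seeing the data.

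**Figure D1:**
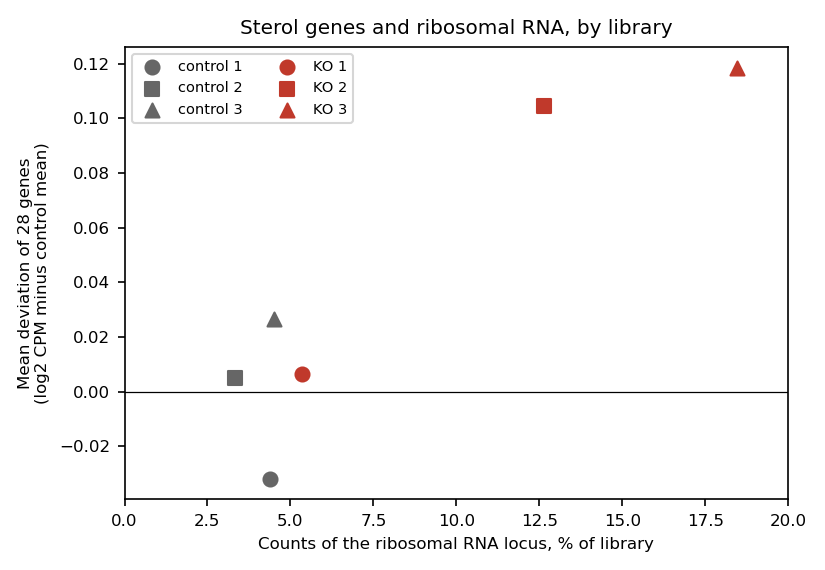
Mean deviation of the 28 sterol genes from the control mean (log2 CPM) against the share of counts from the ribosomal RNA locus (percent), 1 point per library. KO 2 and KO 3 stand at 12.6% and 18.5% ribosomal RNA with mean deviations of 0.10 and 0.12, and KO 1 lies among the controls on the vertical axis.

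Hmgcs1, Insig1 and Srebf2 had the smallest p of the 28 genes, and their promoters are shown because all 3 are known targets of SREBP2. Each window holds 250 bases before and 50 after the RefSeq transcription start, on the plus strand of GRCm38.p6, 5′ to 3′. Capitals mark TCACNCCAC or its first letters TCACNCCA, the site known for SREBP, CACGTG, the E-box, and CCAAT, the box of the cofactor NF-Y, each on either strand, so that CCAAT on the other strand reads ATTGG. The windows are Hmgcs1 at chr13:119690101-119690400, Insig1 at chr5:28071162-28071461 and Srebf2 at chr15:82147019-82147318.
Hmgcs1: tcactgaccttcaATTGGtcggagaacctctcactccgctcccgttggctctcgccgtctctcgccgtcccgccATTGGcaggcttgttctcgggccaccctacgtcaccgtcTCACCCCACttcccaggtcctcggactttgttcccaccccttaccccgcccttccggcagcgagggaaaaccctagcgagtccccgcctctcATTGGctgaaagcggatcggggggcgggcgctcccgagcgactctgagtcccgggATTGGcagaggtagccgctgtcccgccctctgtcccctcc
Insig1: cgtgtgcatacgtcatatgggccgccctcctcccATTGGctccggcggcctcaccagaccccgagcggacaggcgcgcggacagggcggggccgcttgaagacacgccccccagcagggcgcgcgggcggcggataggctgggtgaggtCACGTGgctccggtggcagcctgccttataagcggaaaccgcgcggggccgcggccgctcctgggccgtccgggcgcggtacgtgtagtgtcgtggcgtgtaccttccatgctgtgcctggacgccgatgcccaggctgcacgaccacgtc
Srebf2: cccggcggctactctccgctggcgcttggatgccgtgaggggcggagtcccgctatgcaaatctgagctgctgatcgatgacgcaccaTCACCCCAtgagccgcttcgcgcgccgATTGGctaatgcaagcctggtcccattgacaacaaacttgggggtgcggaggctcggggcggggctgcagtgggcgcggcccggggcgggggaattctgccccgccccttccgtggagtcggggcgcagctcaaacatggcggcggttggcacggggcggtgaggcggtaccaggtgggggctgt

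The Hmgcs1 window held TCACCCCAC starting 137 bases before the transcription start, with ATTGG at 237, 176 and 45 bases before it and a further one after it. In the Srebf2 window TCACCCCA started 162 bases before the start and ATTGG 135 bases before it. Insig1 had CACGTG at 101 bases and ATTGG at 216 bases before its start, and no TCACNCCA. RefSeq windows were found for 23 of the 28 genes. TCACNCCAC occurred in 1 of the 23 (Hmgcs1), against 1.44% of 27025 genes and 1.36% of tested genes. TCACNCCA occurred in 3 (Hmgcs1, Msmo1 and Srebf2), against 4.97% and 4.49%. This shorter form was chosen after the Srebf2 window was seen, so the Srebf2 match was fixed in advance and the count cannot be weighed against these shares. CACGTG occurred in 6 of 23, against 8.09% of all genes and 11.5% of the tested genes with a window. CCAAT was present in 19 of 23 (82.6%), against 41.1% of all genes and 42.5% of tested genes. The GC box GGGCGG, the letters bound by Sp1, was present in 21 of 23 (91.3%), against 38.2% and 68.0%. Over all 32851 windows of this length, counting each start of a gene, the 5 motifs in this order were in 1.24, 4.36, 7.15, 37.4 and 35.7%. Among the 31 windows of the 23 genes they were in 1, 3, 7, 20 and 25. A gene was counted above if any of its windows matched. These are matches of letters and say nothing of binding in islets.

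Of the 7 enzymes from acetyl-CoA to farnesyl units, 5 had positive values, with a median log2 fold change of 0.14. Hmgcs1, which joins acetoacetyl-CoA and acetyl-CoA to HMG-CoA (ENSMUSG00000093930.2, chromosome 13, 119690379 to 119708260 in GENCODE on GRCm38, as for the positions that follow), had the largest value of the 28. Its level was 18.7, 24.9 and 23.3 CPM in controls 1, 2 and 3 and 28.6, 23.8 and 31.1 CPM in KO 1, 2 and 3. KO 1 and KO 3 lay above every control and KO 2 within their range. The log2 fold change was 0.32 (standard error 0.13, edgeR adjusted p = 0.674, two-sided exact permutation p = 0.2). It was 0.43 (standard error 0.23) with the ribosomal RNA covariate and 0.35 with KO 1 alone. The positive values of Idi1, Sc5d and Nr1h2 were also larger in both settings than in the main test, while the median of the list was near 0. No setting called Hmgcs1. Without control 1, its lowest library, its value was 0.21.

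Acat2, the cytosolic thiolase that makes acetoacetyl-CoA, stood at 4.73, 4.49 and 4.18 CPM in controls and 4.49, 5.49 and 5.17 in KO, with a log2 fold change of 0.18 (standard error 0.16, edgeR adjusted p = 0.816). KO 1 lay among the controls and the other KO libraries above them. Mvk, the mevalonate kinase, and Mvd, the decarboxylase that yields isopentenyl diphosphate, had values of -0.06 and -0.12. Pmvk, the kinase between them, had 0.16, with 6.02, 7.22 and 6.75 CPM in controls and 6.77, 8.17 and 7.61 in KO. Idi1, which interconverts the isoprenoid units, stood at 0.14 and Fdps, which joins them to farnesyl diphosphate, at 0.02. Adjusted p in edgeR ran from 0.674 to 0.986 over these 7 genes.

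Counts were low for several of these enzymes, and some share sequence with copies elsewhere. Fdps had 33 to 93 counts per library, the fewest being in control 1. It shares 26.7% of its exon bases with Gm43738 on the same strand, a gene with 0 counts in every library. Of the 50-base words in annotated Fdps transcripts, 15.5% also occur in transcripts of genes elsewhere, among them the processed pseudogenes Gm3571 and Gm5873. For Idi1 the share was 17.7%, all of it found in the pseudogene Gm13502, and for Acat2 it was 39.1%, mostly with Acat3, which had 1 count over the 6 libraries, but 11.2% of the words also occur in Tcp1 transcripts, with 9786 counts. The other sterol genes had less than the 9.38% of Fdft1. How reads with several mapping places were counted is not stated by the labels or notes, so the levels of these 4 genes are uncertain.

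Of the 3 enzymes from farnesyl units to lanosterol, 2 had positive values, with a median of 0.08. Sqle, the squalene monooxygenase and a known control point of the pathway (chromosome 15, 59315077 to 59331192), had 67.3, 74.7 and 81.6 CPM in controls and 72.4, 74.4 and 76.3 in KO. All KO values lay inside the control range. Its log2 fold change was -0.01 with a 95% interval of -0.22 to 0.21 (edgeR adjusted p = 0.992). Fdft1, the squalene synthase, had a value of 0.08 and Lss, which closes the rings to lanosterol, 0.14, with 22.4 and 23.2 CPM in KO 2 and KO 3, 17.6 in KO 1 and 18.8 to 19.5 in controls. KO 1 was thus the lowest and KO 3 the highest of the 6 for Lss, and its value was 0.26 without KO 1 and 0.06 without KO 3. Fdft1 shares 18.8% of its exon bases with Ctsb on the opposite strand, a gene with far more counts, and the strand setting of the counting is not given.

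From lanosterol to cholesterol, 6 of 8 enzymes had positive values, with a median of 0.08. Cyp51, the lanosterol demethylase (chromosome 5, 4081145 to 4104746), had 25.3, 26.3 and 29.6 CPM in controls and 29.5, 31.0 and 31.5 in KO. Only control 3 reached into the KO range. The log2 fold change was 0.17 (standard error 0.09, edgeR adjusted p = 0.730). Sc5d, the sterol desaturase near the end of the pathway, had the smallest standard error of the 28, with 21.7, 22.0 and 22.1 CPM in controls and 23.7, 23.5 and 22.2 in KO. Its groups did not overlap, though KO 3 and control 3 nearly met, and the log2 fold change was 0.08 (standard error 0.08, edgeR adjusted p = 0.846, two-sided exact permutation p = 0.1, the lowest value attainable).

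Msmo1, Nsdhl and Hsd17b7, which act together to remove the methyl groups at carbon C4, all had their highest level in KO 2. Hsd17b7 showed this most, with 5.68 CPM in KO 2, 3.85 in KO 1 and 4.57 in KO 3, against 3.96 to 4.41 in controls. Their log2 fold changes were 0.08, 0.14 and 0.18 (edgeR adjusted p = 0.874, 0.833 and 0.838). Tm7sf2, a sterol reductase, had a value of 0.05 at 2.52 to 3.12 CPM over all libraries, and shares 12.1% of its exon bases with Vps51 on the same strand. Ebp, the sterol isomerase, had 15.6, 15.8 and 15.98 CPM in controls and 15.3, 15.6 and 12.9 in KO, so that its value of -0.12 (standard error 0.11, edgeR adjusted p = 0.825) was set mainly by KO 3. Dhcr7, which reduces 7-dehydrocholesterol to cholesterol, had a value of -0.05, with overlapping groups.

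**Figure D2:**
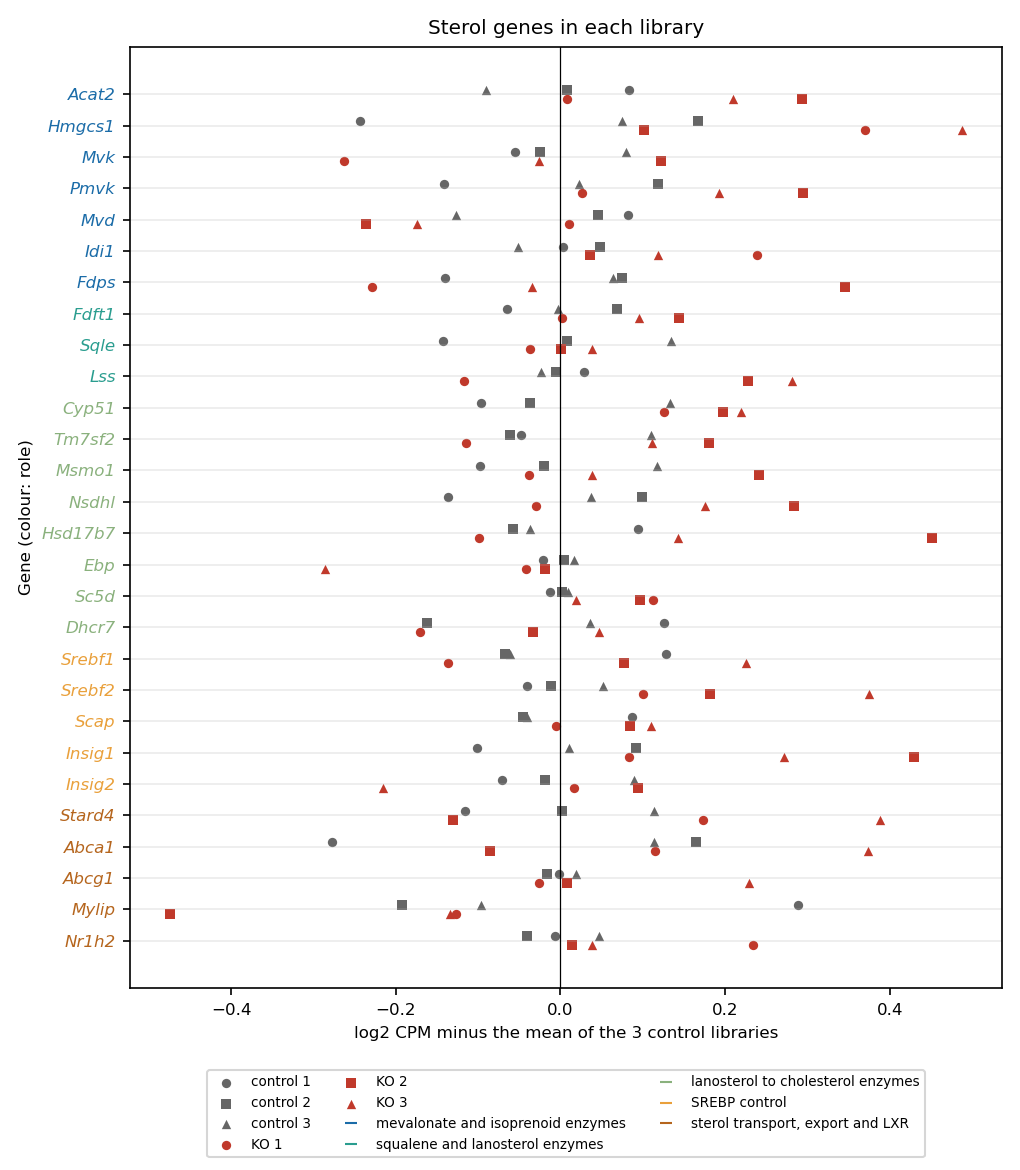
Level of each of the 28 sterol genes in each library, as log2 CPM minus the mean of the 3 controls. Grey symbols are controls and red symbols KO libraries, and the colour of a gene name gives its role. Red squares (KO 2) and red triangles (KO 3) lie to the right of 0 for 22 genes each, red circles (KO 1) for 14.

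In the SREBP control system, Insig1 and Srebf2 had values above their partners Insig2 and Srebf1. Insig1, itself a target of SREBP2 that then holds SCAP in the endoplasmic reticulum (ENSMUSG00000045294.11, chromosome 5, 28071363 to 28078662), had 67.9, 77.6 and 73.4 CPM in controls and 77.2, 98.1 and 87.9 in KO. KO 1 lay within the control range and KO 2 and KO 3 above it. The log2 fold change was 0.26 (standard error 0.11, edgeR adjusted p = 0.671, two-sided exact permutation p = 0.2). It was 0.12 with the ribosomal RNA covariate and 0.08 with KO 1 alone. Insig2, the second INSIG gene, which is not a main SREBP target, had 28.6, 29.7 and 32.0 CPM in controls and 30.4, 32.1 and 25.9 in KO, a log2 fold change of -0.04 (standard error 0.10, edgeR adjusted p = 0.947).

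Srebf2, which encodes SREBP2 (ENSMUSG00000022463.8, chromosome 15, 82147181 to 82205379), stood at 68.2, 69.6 and 72.7 CPM in controls and 75.2, 79.5 and 90.9 in KO. Every KO library lay above every control. The log2 fold change was 0.22 (standard error 0.10, edgeR adjusted p = 0.674, two-sided exact permutation p = 0.1, the lowest value attainable), and it was 0.07 with the ribosomal RNA covariate, 0.10 with KO 1 alone and 0.14 without KO 3. Srebf1, the gene of the SREBP form that favours fatty acid synthesis and a target of LXR, had 71.3, 62.3 and 62.5 CPM in controls and 59.3, 68.8 and 76.3 in KO. Its groups overlapped widely, at a log2 fold change of 0.06 (standard error 0.11, edgeR adjusted p = 0.914). Scap, the sterol sensor and escort, had a value of 0.06, with 33.1 to 36.3 CPM in controls and 34.1 to 36.9 in KO.

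Ratios within a library do not depend on scaling between libraries. Per kilobase of exon, the ratio of Insig1 to Insig2 was 2.66, 2.93 and 2.57 in controls and 2.85, 3.43 and 3.81 in KO (two-sided exact permutation p = 0.2). KO 1 again lay within the control range. The ratio of Srebf2 to Srebf1 was 0.750, 0.876 and 0.912 in controls and 0.994, 0.907 and 0.935 in KO (two-sided exact permutation p = 0.2). Both ratios were chosen after their values were seen, and neither passed.

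**Figure D3:**
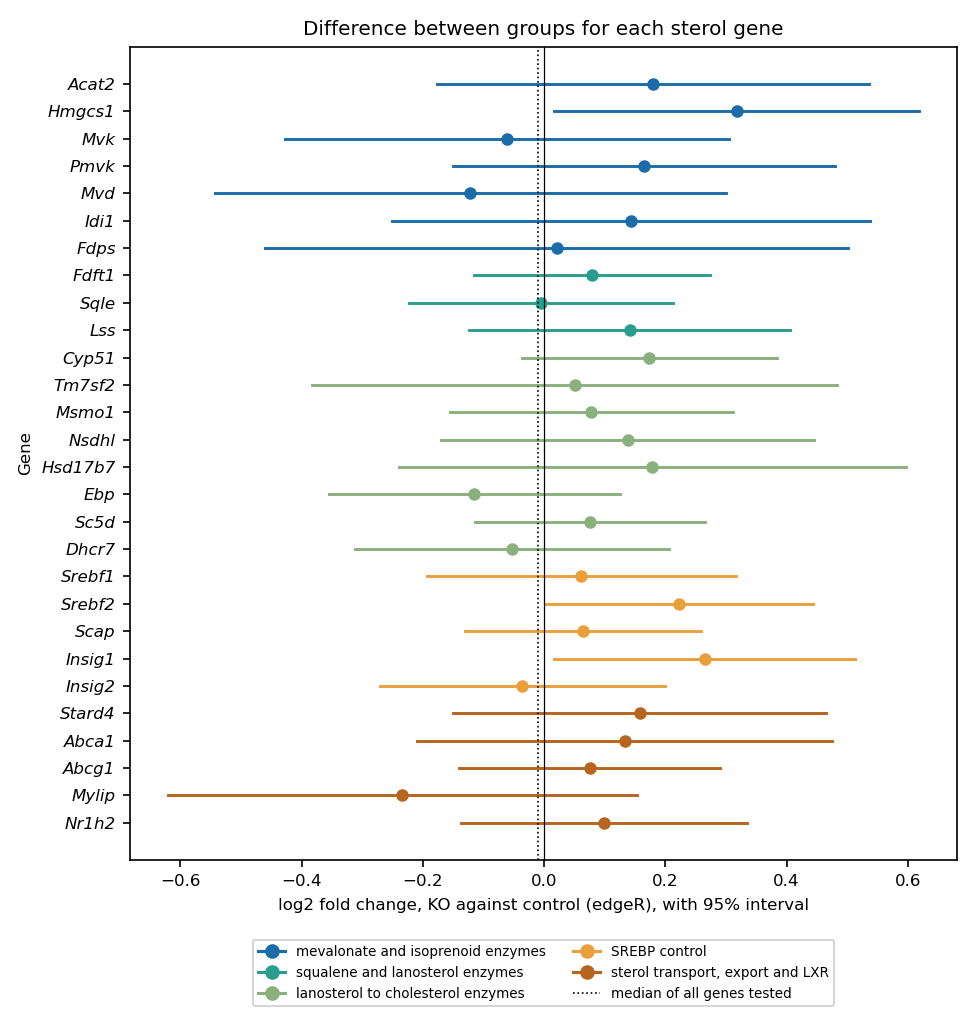
Log2 fold change of KO against control for each of the 28 genes (edgeR), with bars for the 95% interval and colours for the role. The dotted line is the median of all 14212 genes tested (-0.01). The intervals of Hmgcs1, Insig1 and Srebf2 exclude 0 before adjustment, and that of the other 25 genes includes it.

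Of the 5 genes of sterol transport, export and LXR signalling, 4 had positive values and none an unadjusted p under 0.05. Abca1, which exports cholesterol to lipid-poor apolipoproteins and is known to affect insulin secretion, had 118, 161 and 155 CPM in controls and 156, 135 and 186 in KO. Control 1 was the lowest and KO 3 the highest, and the rest overlapped, at a log2 fold change of 0.13 (standard error 0.15, edgeR adjusted p = 0.854). That value was 0.0078 without control 1 and 0.0045 without KO 3. Abcg1, a transporter that moves sterols towards acceptors and within beta cells, had 57.1 to 58.5 CPM in controls and 56.7, 58.1 and 67.7 in KO, a value of 0.08 (standard error 0.10, edgeR adjusted p = 0.867). KO 3 alone stood apart.

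Stard4, a soluble carrier of cholesterol between membranes and a known SREBP2 target, had 15.6, 16.9 and 18.3 CPM in controls and 19.0, 15.4 and 22.1 in KO, with KO 2 the lowest of all 6. Its log2 fold change was 0.16 (standard error 0.14, edgeR adjusted p = 0.813), with 0.027 without KO 3 and 0.28 without KO 2. Mylip, an LXR target that marks lipoprotein receptors for degradation, had the lowest value of the 28 at -0.23 (standard error 0.17, edgeR adjusted p = 0.788), with 9.06, 6.47 and 6.92 CPM in controls and 6.77, 5.30 and 6.73 in KO. That value leaned on control 1, the highest library, and was -0.09 without it. Nr1h2, the gene of LXR beta, had a value of 0.10, with 13.4 to 14.2 CPM in controls and 13.9 to 16.2 in KO. KO 2 lay below the control mean for this group as a whole (mean deviation -0.13), and above it for each of the 4 other roles (0.12 to 0.18).

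Levels per kilobase of exon spanned a wide range along the pathway. Insig1 was highest at 23.6 ± 1.6 CPM per kilobase (SD, n = 3) in controls, and in KO it stood at 28.4 ± 3.4 (SD, n = 3). Abca1 followed at 13.99 ± 2.2 and Sqle at 13.4 ± 1.3 in controls, which did not differ beyond their spread. Srebf1 stood at 11.6 ± 0.92, Srebf2 at 9.76 ± 0.32 and Insig2 at 8.67 ± 0.50. At the low end were Tm7sf2 at 0.623 ± 0.043, Fdps at 0.697 ± 0.059, Hsd17b7 at 0.809 ± 0.048 and Idi1 at 0.868 ± 0.031. The ratio of Sqle to Fdps per kilobase was 19.3 ± 0.92 (SD, n = 3) in controls, against 19.2 ± 3.7 (SD, n = 3) in KO. The Fdps level in this ratio is uncertain, as Fdps shares exon bases and sequence with other genes. Exon length here is the merged length of all annotated exons, which lowers the value of genes with long unused exons. The spread within a group, as the coefficient of variation, was larger in KO than in controls for 22 of the 28 genes, with medians of 10.2% and 6.83%. Over all genes it was larger in KO for 56.1%, against 78.6% of the 28, with medians of 12.4% and 10.7%. A larger spread in KO was thus not limited to the sterol genes, though more frequent among them, and that difference was not tested.

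**Figure D4:**
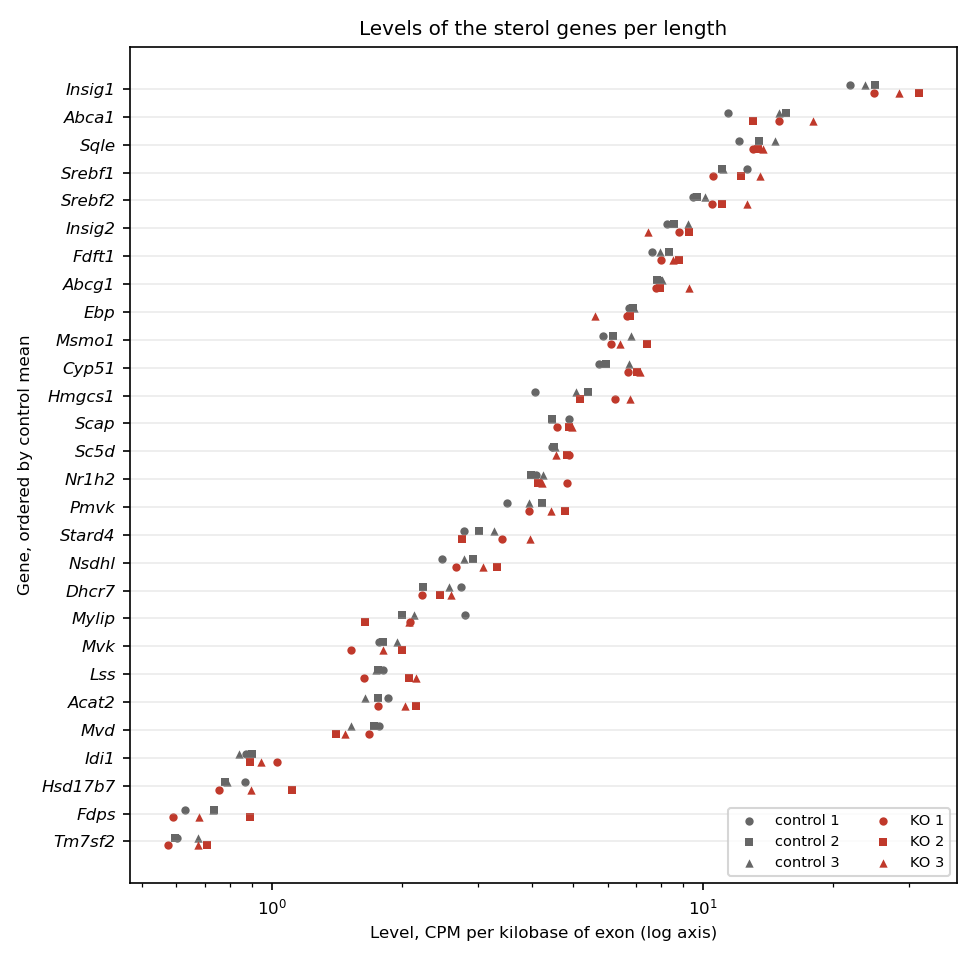
Levels of the 28 sterol genes in CPM per kilobase of exon (log axis), ordered by the control mean, with 1 symbol per library (grey controls, red KO). Insig1 is the highest and Tm7sf2 the lowest, and the differences between genes exceed those between groups.

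Genes that work beside the pathway were near the background of all genes. Over 65 tested genes of 5 further lists, 27 values were positive (41.5%, against 47.8% of all genes), and the median was -0.02, against -0.01. None passed in edgeR (0 of 65), and 5 had an unadjusted p under 0.05 (7.69%, against 7.37% of all genes). The groups did not overlap for 8 of the 65 (12.3%, against 13.9%). Of the 19 genes of these lists named here, leaving out 1 library moved the value of 12 by over 1.5 times, a count likewise not made over all genes. Among fatty acid and acetyl-CoA targets of SREBP, 10 of 18 were positive. Acaca and Fasn, the enzymes of fatty acid synthesis, had values of 0.23 and 0.21, Fads1, a fatty acid desaturase, -0.14 and Mid1ip1, a partner of acetyl-CoA carboxylase, -0.22 (edgeR adjusted p from 0.671 to 0.748). Without KO 3, Acaca had 0.074 and Fasn 0.056.

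Of 11 genes that cleave SREBP or degrade its sterol-controlled partners, 5 were positive. Rnf145, a sterol-responsive ubiquitin ligase and known LXR target, had the smallest p of all lists, at 35.0, 35.2 and 41.3 CPM in controls and 45.7, 47.5 and 49.2 in KO. Every KO library lay above every control. Its log2 fold change was 0.35 (standard error 0.10, edgeR adjusted p = 0.515), with 0.30 under the ribosomal RNA covariate and 0.29 with KO 1 alone. Rnf139, Aup1 and Paqr3 of this list had values of -0.14, -0.27 and -0.45, which were -0.049 without control 2, -0.11 without control 1 and -0.058 without control 3.

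Of 18 genes of sterol trafficking, storage and oxysterols, 5 were positive and 13 negative. Vldlr, a lipoprotein receptor, had -0.23, Scarb1, the receptor for high-density lipoprotein, -0.21, Nceh1, a cholesteryl ester hydrolase, -0.11 and Npc1, the lysosomal cholesterol exporter, 0.15 (edgeR adjusted p from 0.674 to 0.792). Without control 1, Scarb1 had -0.057 and Nceh1 -0.069, and without KO 3 Npc1 had 0.091. In the non-sterol isoprenoid branch 4 of 12 were positive. Dhdds, a subunit of the enzyme that makes dolichol precursors, had 78.6, 79.8 and 77.6 CPM in controls and 62.3, 69.4 and 56.5 in KO, with every KO library below every control. Its log2 fold change was -0.33 (standard error 0.10, edgeR adjusted p = 0.538), with -0.30 under the ribosomal RNA covariate and -0.34 with KO 1 alone. Pdss2, Trit1 and Ggps1 stood at -0.34, -0.29 and 0.14, but Trit1 had -0.067 without KO 3 and Ggps1 0.056 without control 1. Of 6 tested LXR partners and targets 3 were positive, with Ncor1, a corepressor of nuclear receptors, at 0.31 (standard error 0.11, edgeR adjusted p = 0.612), Lpcat3 at 0.11 and Smpdl3a at -0.21. Lpcat3 had 0.044 without control 2, and Smpdl3a -0.0096 without control 1.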

How the data were processed

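The authors deposited raw counts per gene in 6 libraries. The tools named per the submitters' processing notes are featureCounts 2.0.0 and STAR 2.7.9, and the builds GRCm38.p6 and mm10. The sources used here do not state annotation release, strand setting or multimapping. Symbols came from a gene name table (55141 of 55401 identifiers matched). Members and lists were chosen with earlier results of these data known. The main test was edgeR 4.0.16 (glmQLFit, glmQLFTest, R 4.3.3), TMM, filterByExpr (minimum count 10, minimum total 15), genotype as the only term, Benjamini-Hochberg over 14212 genes, two-sided, tested on simulated data. There it called 18.0% of genes given a log2 fold change of 0.5 in either direction, 70% at 1 and 91.7% at 2. Smaller changes, such as those of all 28 sterol genes, were not simulated, and each gene was drawn independently. Of its calls there, 7.75% were false. Intervals are 95%. Levels are TMM-scaled CPM, and log2 CPM used a prior count of 2. Text names all members, Pdgfra, the ribosomal RNA locus, and of each further list up to 4 genes with the smallest p, except 1 gene that is not reported here. Alternatives were RLE, no filter, replicate block, each library left out, DESeq2 1.42.0, limma-voom (limma 3.58.1), ribosomal RNA or acinar covariates, and those genes removed. Promoters came from RefSeq (GRCm38.p6) and shared 50-base words from GENCODE transcripts. The motif TCACNCCA was shortened from TCACNCCAC after the Srebf2 window was seen. Exact permutation tests used SciPy 1.17.1 and figures matplotlib 3.10.9, with Python 3.11.15. No pair of libraries was a duplicate (lowest chi-square per degree of freedom 14.4).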

Additional observations from a re-analysis of the deposited data

How the results depend on the processing

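No sterol gene was called in any of the 15 alternatives, and 11 of the 28 kept their direction in all of them. Of 420 values, 39 changed direction, most of them near 0, and the cause was not tested. With the ribosomal RNA covariate, chosen with earlier results known, the median was 0.0037. Only values that changed direction are listed for it: -0.033 for Acat2, 0.018 for Mvd, -0.20 for Fdps, -0.17 for Lss, -0.15 for Tm7sf2, -0.013 for Msmo1, -0.15 for Hsd17b7, 0.0051 for Ebp, -0.24 for Srebf1, -0.056 for Scap, 0.074 for Insig2, -0.067 for Abcg1, -0.12 for Fasn, 0.035 for Trit1 and -0.034 for Lpcat3. Some other values moved further from 0, such as Idi1 at 0.27 and Nr1h2 at 0.25. With KO 1 alone, added after seeing the data, where the lone sample is assumed to vary like the controls, 13 values were positive and the median was -0.0031. The values that changed direction there were 0.019 for Mvd, -0.25 for Fdps, -0.00089 for Fdft1, -0.12 for Lss, -0.13 for Tm7sf2, -0.045 for Msmo1, -0.040 for Nsdhl, -0.10 for Hsd17b7, -0.14 for Srebf1, -0.0052 for Scap, 0.011 for Insig2, -0.027 for Abcg1, -0.043 for Fasn and 0.022 for Trit1. With limma-voom Fdps had -0.034 and Sqle 0.0021. The acinar covariate left 21 values positive, with a median of 0.072. Removing the acinar markers and the ribosomal RNA locus left 21 positive, with a median of 0.077. With 1 library left out, the median ran from 0.058 (without KO 3) to 0.14 (without KO 1) and the positive count from 18 (without KO 2) to 24 (without KO 1). Among genes that changed direction, values then ran from -0.15 to 0.039 for Mvk, -0.15 to 0.15 for Fdps, -0.073 to 0.067 for Sqle, -0.0091 to 0.14 for Tm7sf2, -0.0053 to 0.14 for Msmo1, -0.13 to 0.0044 for Dhcr7, -0.028 to 0.15 for Srebf1, -0.10 to 0.050 for Insig2, -0.0090 to 0.12 for Abcg1 and -0.59 to 0.044 for Pdgfra.

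With the replicate block, 0 sterol genes passed (lowest edgeR adjusted p = 0.398), 21 values were positive and the median was 0.08, so the pairing changed no call among them. Over all genes calls numbered 36 with the block, 10 without it, 300 without the filter, 49 with DESeq2, 6 with limma-voom, 48 with the acinar covariate, 0 with the ribosomal RNA covariate (214 at an unadjusted p under 0.05) and 0 with KO 1 alone (448). Leaving out 1 library gave 2 to 6. For libraries of one number, deviations from the group means had correlations of 0.16, -0.16 and 0.14, so the numbers were not taken to pair them.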
